A study of Sus scrofa with 4 samples.

Results

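The histone genes described here are the 54 of 35248 rows of the deposited expression table whose description names a core, linker or variant histone, together with the linker histones matched by symbol. Another 2 rows matched the same wording and were left out because they encode a histone kinase and a transcription factor of histone promoters. The set holds 7 linker H1 rows, 20 H2A, 14 H2B, 3 H3 and 10 H4 rows. By class, 36 rows are core histones of the replication-dependent type, 11 are core variants and 7 are linker histones.

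All samples were parthenogenetic pig (Sus scrofa) embryos at the 4-cell stage, made from oocytes that were activated by an electric pulse without sperm, held in cytochalasin B and then cultured for 48 h in PZM-3 medium with bovine serum albumin. The 2 Bobcat339 samples received 50 µM of that compound, a small molecule known as an inhibitor of the TET dioxygenases that oxidise 5-methylcytosine in DNA. The 2 control samples received DMSO, the usual solvent, whose dose the labels give in the unit of the inhibitor. Total RNA of each sample was made into 1 Smart-seq2 library, and the sources used here do not give how many embryos went into each.

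Core histones H2A, H2B, H3 and H4 form the octamer around which DNA is wound, and a linker H1 binds the DNA where it enters and leaves the nucleosome. Most core histone genes are replication-dependent: they are short, lack introns, lie in clusters, and give mRNAs that end in a stem-loop instead of a poly(A) tail and are made mainly in S phase. Replacement variants such as H3.3 and H2A.Z come from genes with introns and polyadenylated mRNAs, and oocytes of mammals store their own linker histone, H1FOO. Smart-seq2 starts its cDNA at poly(A), so a histone mRNA without a tail is captured poorly.

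Library totals lay between 13568525 and 14681221 counts, and 3 counts, the level below which a row is treated as near 0, corresponded to 0.204 to 0.218 CPM. CPM are counts divided by the size of the library, here scaled by TMM, a method that sets the libraries to a common level from the bulk of the genes. Levels are compared per length between genes as the authors' FPKM, which are divided by gene length. Shares of a family, ranks and class levels given in CPM are not corrected for length. The list of oocyte and early embryo markers (9 rows, all with counts in every library) summed to 10320 and 11800 CPM with Bobcat339, against 10490 and 11540 CPM in controls, although ZAR1, one of these markers, averaged 0.831 CPM. Markers of cumulus and granulosa cells, the somatic cells around the oocyte, summed to 118 and 167 CPM with Bobcat339 and to 123 and 142 CPM in controls, with 8 of 12 rows counted in every library, FSHR at 1 count over all libraries and AMH at 0. Blood and immune markers summed to 8.18 and 13.4 CPM with Bobcat339 and 9.53 and 9.59 CPM in controls. Nothing in the labels ties the replicates to separate batches of embryos, so the p-values below reflect the spread among these samples alone, and that spread may be technical. In bulk RNA, fewer cells of a kind and less RNA per cell cannot be told apart.

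Of the 54 histone rows, 46 had a count in at least 1 library and 8 were at 0 in all 4. The filter on low counts left 30 rows for testing, and the 16 others with counts never exceeded 13 counts in a library. In the comparison of Bobcat339 with control embryos, 0 of the 30 tested histone rows passed an edgeR adjusted p of 0.05, where 0% of the 18481 tested rows of the table passed, and the smallest edgeR adjusted p was 0.909 among histones and 0.343 over all rows. At an unadjusted edgeR p below 0.05 there was 1 histone row, HIST1H2BB (3.33%), against 4% of all rows, and its value was lower with Bobcat339, as in 2.64% of all rows. DESeq2 called 0 of the 46 histone rows with counts and 5 of 30007 rows of the table (0.0167%), and HIST1H2BB was again the 1 histone row with an unadjusted DESeq2 p below 0.05, against 1.86% of all rows.

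The histone rows had fold changes spread around 0. With Bobcat339, 11 tested rows had a log2 fold change above 0 and 19 below 0 (63.3%, against 52.9% of all tested rows), with a median of −0.09 for the histones and −0.02 for all tested rows. Both Bobcat339 libraries lay on the same side of both controls in 7 of 30 histone rows (23.3%, against 29.3% of all rows), above them in 1 (13.3% of all rows) and below them in 6 (16% of all rows). The second control library was the highest of the 4 in 15 of the 30 histone rows (50%), against 29.9% of all tested rows. The Bobcat339 libraries differed by more than 2-fold in CPM in 7 of the 30 histone rows (10.3% of all tested rows), and the control libraries in 9 (18.1% of all tested rows). These are mostly rows of few counts: with 0.5 CPM added to every value, which damps the spread of low rows, the numbers were 2 (4.8% of all rows) and 4 (11.5% of all rows).

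How much these libraries could resolve differed with abundance. The 95% interval of the log2 fold change included 0 in 29 of the 30 tested rows, and its half-width was 0.46 for H1FOO, the most abundant, and 1.83 for a histone H2B type 1 row (ENSSSCG00000035955) with 3 and 20 counts under Bobcat339 and 15 and 5 counts in controls. For 7 rows the whole interval lay between −1 and 1, that is, within a doubling or halving: H1FOO, H2AFV, H2A type 1 ENSSSCG00000036080, H2A type 2-C ENSSSCG00000034598, HIST1H2BA, the H3.3 row ENSSSCG00000017202 and H4 ENSSSCG00000036093. For the other 23 tested rows a 2-fold difference in at least 1 direction was within the interval.

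**Figure D1:**
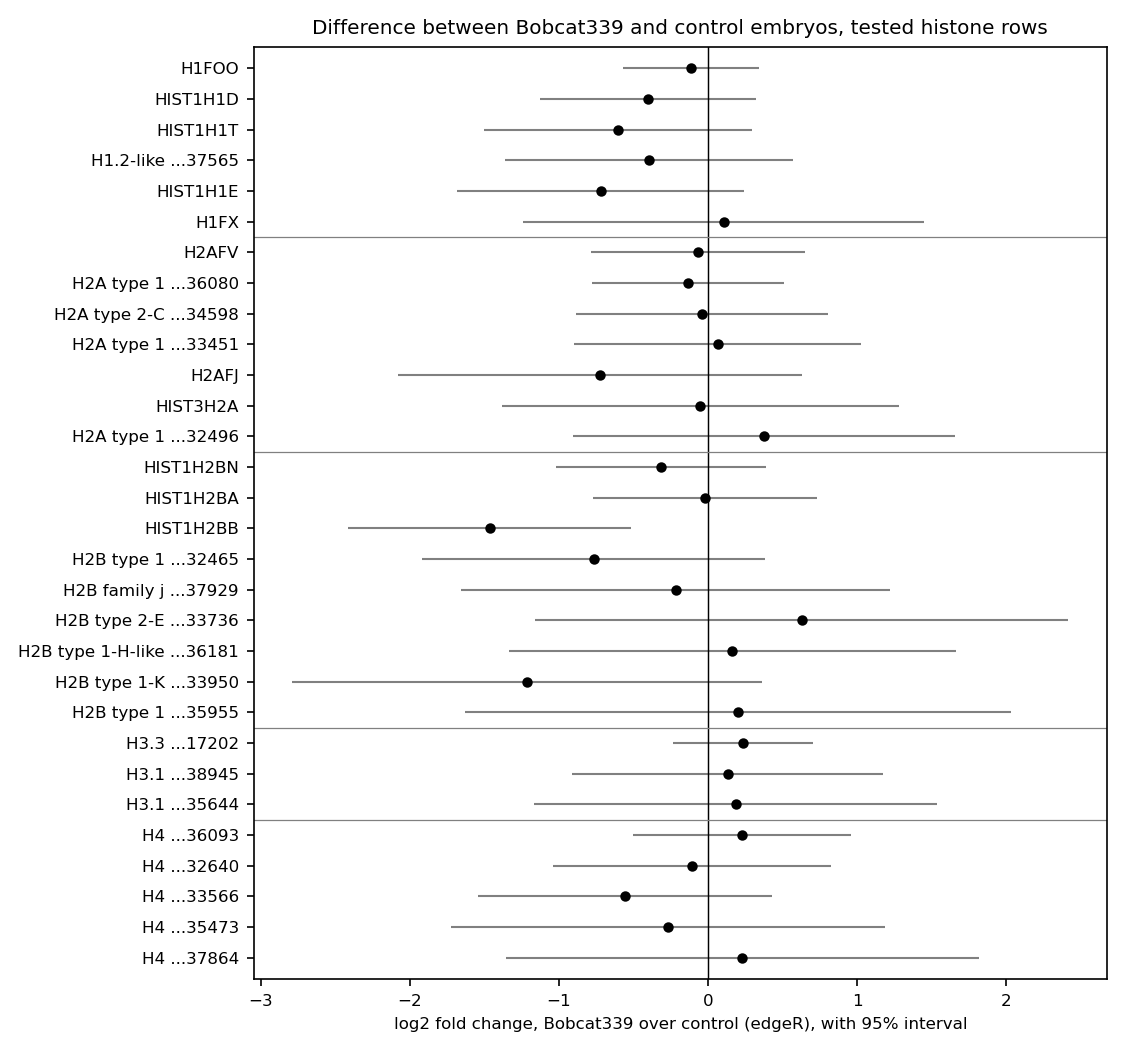
Log2 fold change of Bobcat339 over control (horizontal axis) for each of the 30 tested histone rows, grouped by family H1, H2A, H2B, H3 and H4, with points for the edgeR estimate and lines for its 95% interval. The interval of HIST1H2BB, from −2.41 to −0.52, is the only one that leaves out 0.

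The 54 rows together made up 0.475% and 0.531% of all counts in the Bobcat339 libraries and 0.466% and 0.501% in the control libraries. Their summed level was 4746 and 5249 CPM with Bobcat339 and 4810 and 4971 CPM in controls, so that the groups overlapped, with a log2 ratio of 0.03 and an exact permutation p of 1 (two-sided, n = 2 in each group). With 4 libraries the smallest two-sided p such a test can give is 0.333. Per length and within the 54 rows, the 7 H1 rows led with a summed 2260 and 2398 FPKM under Bobcat339 and 2175 and 2814 FPKM in controls. H3 followed with 528 and 631 FPKM under Bobcat339 and 521 and 445 FPKM in controls. The other families were far lower in FPKM within these rows, which leave out H2AFZ, an H2A variant given below. Their replication-dependent rows give mRNAs that Smart-seq2 captures poorly, and how far this lowered the sums was not tested. H2A summed to 163 and 162 FPKM with Bobcat339 and 169 and 181 FPKM in controls, and H2B to 75.0 and 89.1 FPKM with Bobcat339 and 91.4 and 120.1 FPKM in controls. H4 summed to 89.2 and 66.9 FPKM with Bobcat339 and 77.9 and 70.7 FPKM in controls. In CPM, a single row gave 99.0% of the H1 family, 99.8% of H3, 58.6% of H4, 57.8% of H2A and 41.0% of H2B.

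Of the 5 family sums, H2B was the one whose groups did not overlap. It was 28.0 and 34.3 CPM under Bobcat339 and 36.2 and 44.6 CPM in controls, a mean of 31.2 ± 4.46 CPM and 40.4 ± 5.95 CPM (SD, n = 2 each). The log2 ratio was −0.38, with an exact permutation p of 0.333, the smallest this design can give. The sum includes HIST1H2BB, the histone row with the smallest p, at 1.77 and 2.77 CPM with Bobcat339 and 5.02 and 7.52 CPM in controls. With that row taken out, the H2B groups overlapped. The H1 sum was 2463 and 2586 CPM with Bobcat339 and 2444 and 3044 CPM in controls, with a log2 ratio of −0.12 (exact permutation p = 1). The H3 sum was 2084 and 2478 CPM with Bobcat339 and 2135 and 1740 CPM in controls, with a log2 ratio of 0.24 (exact permutation p = 0.667). In both, it was the second control library that stood at an extreme, highest for H1 and lowest for H3. H2A and H4 had log2 ratios of −0.10 and 0.04, each with an exact permutation p of 1.

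**Figure D2:**
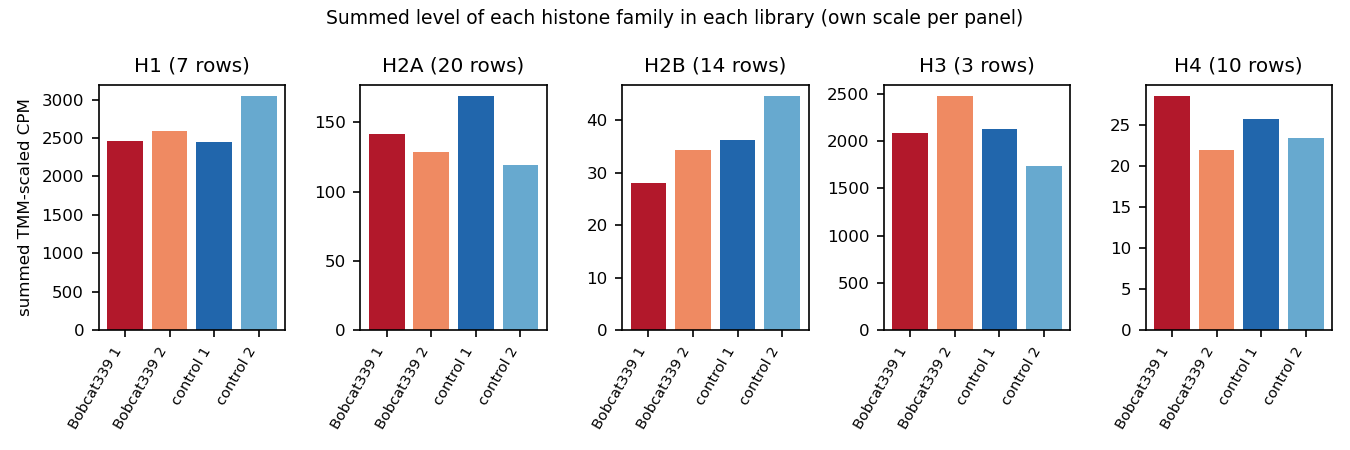
Summed TMM-scaled CPM (vertical axis, starting at 0, with its own scale in each panel) of the histone rows of each family in each of the 4 libraries; each bar is 1 library. The H2B bars of both Bobcat339 libraries (28.0 and 34.3 CPM) are below both control bars (36.2 and 44.6 CPM), and in the other 4 families the groups overlap. With HIST1H2BB taken out, the H2B groups overlap as well.

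Among the linker histones, H1FOO (ENSSSCG00000011591, Sscrofa11.1 chr13:68921491-68942744, plus strand), the oocyte-specific H1 that replaces somatic H1 in oocytes and early embryos, was the most abundant histone row of the table. It had 35812 and 35206 counts in the Bobcat339 libraries and 33719 and 42034 counts in the control libraries. Its mean of 2384 FPKM placed it 15th among all 35248 rows, ordered from the highest FPKM, and it gave 98.85% to 99.16% of the H1 CPM in each library. In CPM it was at 2440 and 2565 with Bobcat339 and at 2416 and 3009 in controls. The first control library was the lowest and the second the highest, with both Bobcat339 libraries between them. The log2 fold change was −0.12 (95% interval −0.57 to 0.34, SE 0.22, edgeR adjusted p = 0.999), and it turned to 0.08 without the second control library.

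The other H1 rows had far lower levels, with at most 10.4 FPKM on average. HIST1H1D (ENSSSCG00000001137) had 10.1 and 11.5 CPM with Bobcat339 and 12.4 and 16.1 CPM in controls, a log2 fold change of −0.40 (95% interval −1.12 to 0.32, SE 0.34). HIST1H1T, known in mammals as the H1 of male germ cells, had 4.70 and 2.91 CPM with Bobcat339 and 4.80 and 6.80 CPM in controls, a log2 fold change of −0.60 (95% interval −1.51 to 0.30). In these 2 rows both Bobcat339 libraries were below both controls (as in 16% of all tested rows), for HIST1H1T by little between the nearest libraries. HIST1H1E had 2.86 and 3.57 CPM with Bobcat339 and 3.44 and 7.16 CPM in controls, and its log2 fold change of −0.72 (95% interval −1.68 to 0.24) was −0.07 without the second control library. That library was again the high one, and the other 3 lay close together. The H1.2-like row ENSSSCG00000037565, chosen after its values were seen to complete the family, had 4.97 and 2.40 CPM with Bobcat339 and 5.73 and 4.01 CPM in controls, a log2 fold change of −0.40 with overlapping groups. H1FX, a replication-independent linker variant, had 1.23 and 1.24 CPM with Bobcat339 and 1.51 and 0.787 CPM in controls, a log2 fold change of 0.10. H1F0, the linker histone of differentiated, non-dividing cells, had 0 and 1 counts with Bobcat339 and 0 and 3 counts in controls, at or under the level treated as near 0. Thus 5 of the 6 tested H1 rows had values below 0 (83.3%, against 52.9% of all tested rows) and 1 above it. The median log2 fold change was −0.40, and none passed the test. In 4 of the 6 the second control library was the highest of the 4 (66.7%, against 29.9% of all tested rows).

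**Figure D3:**
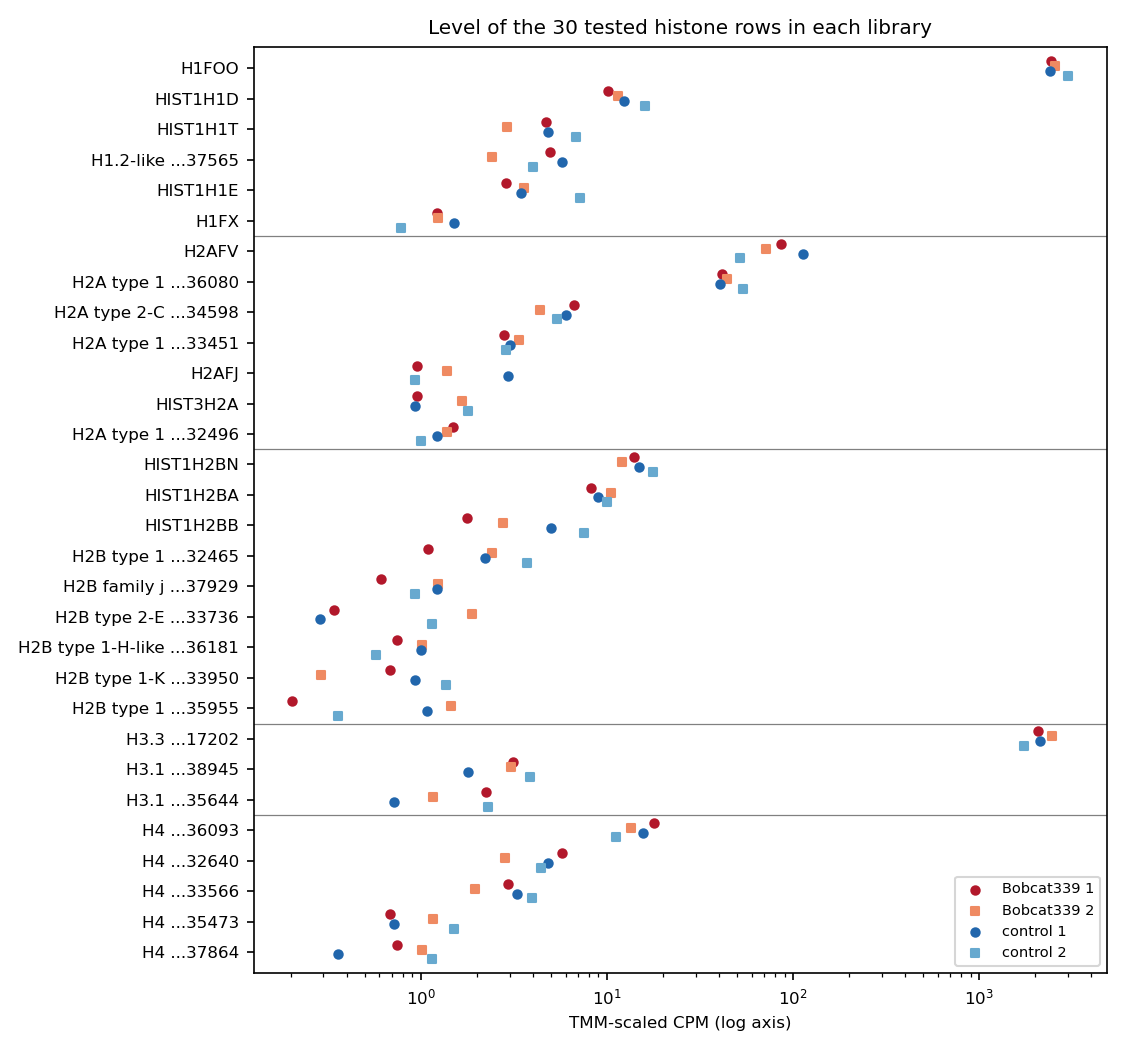
TMM-scaled CPM (horizontal log axis) of the 30 tested histone rows in the 2 Bobcat339 libraries (red and orange) and the 2 control libraries (dark and light blue); circles are replicate 1, squares replicate 2, and grey lines separate the families. H1FOO and the H3.3 row stand at 1733 CPM or more in every library, and the next row, H2AFV, lies between 52.1 and 113 CPM.

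In the H3 family nearly all of the level came from the H3.3 row (ENSSSCG00000017202, Sscrofa11.1 chr12:5631686-5635794, plus strand), which carries no symbol in the table. H3.3 is the replacement H3 that is laid into chromatin outside of replication and is abundant in oocytes. The row had 30516 and 33957 counts with Bobcat339 and 29756 and 24212 counts in controls, or 2079 and 2474 CPM with Bobcat339 and 2132 and 1733 CPM in controls. The second Bobcat339 library was the highest and the second control library the lowest, while the first libraries of both groups were close. The log2 fold change was 0.24 (95% interval −0.23 to 0.70, SE 0.22, edgeR adjusted p = 0.999). It gave 99.65% to 99.88% of the H3 CPM, and its mean of 526 FPKM was the 59th highest of the table.

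The pair of H3.1 rows, replication-dependent H3 genes on chromosome 7, had at most 54 counts in a library. ENSSSCG00000038945 had 3.13 and 3.06 CPM with Bobcat339 and 1.79 and 3.87 CPM in controls (log2 fold change 0.13, 95% interval −0.91 to 1.17). ENSSSCG00000035644 had 2.25 and 1.17 CPM with Bobcat339 and 0.716 and 2.29 CPM in controls (log2 fold change 0.19, 95% interval −1.17 to 1.54). In both rows the Bobcat339 values lay between the controls. All 3 H3 rows had values above 0, with a median of 0.19, but both H3.1 values turned below 0 without the first control library, at −0.32 for ENSSSCG00000038945 and −0.42 for ENSSSCG00000035644.

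Several variant genes lie outside the set because the description that the table gives them starts otherwise or is cut at a comma, and their values are given beside it. H3F3A (ENSSSCG00000023971), a second source of H3.3, had 529 and 527 CPM with Bobcat339 and 547 and 306 CPM in controls, a log2 fold change of 0.31 (95% interval −0.28 to 0.89). H2AFZ (ENSSSCG00000009178), which encodes the H2A.Z variant found around active promoters, had 1070 and 1195 CPM with Bobcat339 and 1082 and 641 CPM in controls, a log2 fold change of 0.40 (95% interval −0.15 to 0.94). Its level was 520 and 588 FPKM with Bobcat339 and 510 and 314 FPKM in controls, above that of every H2A row in the set. In both genes 3 libraries were alike and the second control library was low. Both had an edgeR adjusted p of 0.999 with 4 libraries. Without the first control library, so that the low one stood alone, the log2 fold changes were 0.82 for H2AFZ and 0.79 for H3F3A. Without the second control library the log2 fold changes were 0.09 and −0.02. CENPA, the H3 variant of centromeres, had 16.28 and 13.62 CPM with Bobcat339 and 15.2 and 9.38 CPM in controls (log2 fold change 0.28), and H2AFY, a macroH2A, had 19.1 and 18.7 CPM with Bobcat339 and 13.5 and 21.0 CPM in controls (log2 fold change 0.13). Neither passed the test. H2AFY2, H1FNT, HIST1H3E and HIST1H2BD had at most 5 counts in any library and were not tested. No row was found for the variants H2AFX and H3F3C by symbol, so their levels are not known here.

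Among the 20 H2A rows of the set, which do not hold H2AFZ, the leading row by counts was H2AFV (ENSSSCG00000016738, Sscrofa11.1 chr18:50533429-50549298, plus strand), which encodes the second H2A.Z. It had 1268 and 977 counts with Bobcat339 and 1578 and 728 counts in controls, or 86.4 and 71.2 CPM with Bobcat339 and 113 and 52.1 CPM in controls. The controls were the highest and the lowest library, more than 2-fold apart, and both Bobcat339 libraries lay between them. Its log2 fold change was −0.07 (95% interval −0.79 to 0.65, SE 0.34, edgeR adjusted p = 0.999). It was 0.60 without the first control library and −0.49 without the second.

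Per length the highest of these H2A rows was the H2A type 1 row ENSSSCG00000036080 (Sscrofa11.1 chr7:20729997-20730389, minus strand), a gene of 393 bases with a mean of 114 FPKM, where H2AFV had 28.3 FPKM. It had 41.6 and 44.4 CPM with Bobcat339 and 40.7 and 53.6 CPM in controls. The second control library was the highest and the other 3 lay together, and the log2 fold change was −0.13 (95% interval −0.78 to 0.51, SE 0.30). The H2A type 2-C row ENSSSCG00000034598, on chromosome 4, had 6.68 and 4.37 CPM with Bobcat339 and 6.02 and 5.37 CPM in controls, a log2 fold change of −0.04 (95% interval −0.89 to 0.80). Here the controls lay between the Bobcat339 libraries.

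The lower H2A rows had wider intervals. H2AFJ, a replication-independent H2A variant, had 0.954 and 1.38 CPM with Bobcat339 and 2.94 and 0.931 CPM in controls. Only the first control library stood apart, and the log2 fold change of −0.72 (95% interval −2.08 to 0.63) was 0.32 without it. The H2A type 1 row ENSSSCG00000032496 was the one histone row in which both Bobcat339 libraries, at 1.499 and 1.384 CPM, lay above both controls, at 1.218 and 1.002 CPM. Its log2 fold change was 0.38 (95% interval −0.91 to 1.66), from 14 to 22 counts per library. The H2A-Bbd rows, short H2A variants known from testis in mammals, are 6 rows on chromosome X: 4 were at 0 in all libraries, 1 had 1 and 0 counts with Bobcat339 and 2 and 3 counts in controls, and 1 had a single count in a control library. A count of 0 in a library allows a level of up to 0.204 to 0.218 CPM, from counting error alone.

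The H2B family held the histone row with the smallest p. HIST1H2BB (ENSSSCG00000031122, Sscrofa11.1 chr7:20735561-20735941, minus strand), a replication-dependent H2B gene of the large cluster, had 26 and 38 counts with Bobcat339 and 70 and 105 counts in controls. In CPM these were 1.77 and 2.77 with Bobcat339 and 5.02 and 7.52 in controls, a mean of 2.27 ± 0.705 and 6.27 ± 1.77 CPM (SD, n = 2 each). Both Bobcat339 libraries lay below both controls with no overlap. The log2 fold change was −1.46 (95% interval −2.41 to −0.52, SE 0.45), with an unadjusted edgeR p of 0.00467 and an edgeR adjusted p of 0.909, so the row did not pass. The share of HIST1H2BB in the H2B CPM was 6.33% and 8.07% with Bobcat339 and 13.9% and 16.9% in controls. With any 1 library left out its log2 fold change stayed between −1.78 and −1.12. Without the first control library its edgeR adjusted p was 0.00569, where 2.92% of all rows passed, and on the rows of the 4-library filter it was 0.126. Leaving out any other library gave an adjusted p of at least 0.169 in edgeR.

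The most abundant H2B row was HIST1H2BN (ENSSSCG00000040923), another replication-dependent gene. It had 14.0 and 12.1 CPM with Bobcat339 and 14.8 and 17.7 CPM in controls, and its log2 fold change was −0.32 (95% interval −1.02 to 0.39, SE 0.33). Both Bobcat339 libraries were below both controls, the nearest ones by little. HIST1H2BA, known in mammals as the testis-specific H2B and also present in oocytes, had 8.17 and 10.5 CPM with Bobcat339 and 8.96 and 9.95 CPM in controls. The control values lay between the Bobcat339 values, with a log2 fold change of −0.02 (95% interval −0.77 to 0.73, SE 0.35).

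Further H2B rows had fewer than 60 counts in every library. The H2B type 1 row ENSSSCG00000032465 had 1.09 and 2.40 CPM with Bobcat339 and 2.22 and 3.72 CPM in controls (log2 fold change −0.77, 95% interval −1.92 to 0.38). The H2B type 1-K row ENSSSCG00000033950 had 0.681 and 0.291 CPM with Bobcat339 and 0.931 and 1.36 CPM in controls (log2 fold change −1.21, 95% interval −2.79 to 0.36), with no overlap but only 4 to 19 counts. The H2B type 2-E row ENSSSCG00000033736 had 0.341 and 1.89 CPM with Bobcat339 and 0.287 and 1.15 CPM in controls, so that the second replicate was the high one in both groups (log2 fold change 0.63, 95% interval −1.16 to 2.41). Of the 9 tested H2B rows, 3 had values above 0 and 6 below (66.7%, against 52.9% of all tested rows). Their median log2 fold change was −0.22.

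In the H4 family the row ENSSSCG00000036093 (Sscrofa11.1 chr7:20721470-20721781, plus strand) gave 58.6% of the CPM and had a mean of 46.6 FPKM. H4 genes encode a nearly invariant protein, the partner of H3 in the nucleosome. The row had 17.92 and 13.55 CPM with Bobcat339 and 15.7 and 11.2 CPM in controls, a log2 fold change of 0.22 (95% interval −0.50 to 0.96, SE 0.35). In both groups the first replicate was the higher one. ENSSSCG00000032640 had 5.72 and 2.84 CPM with Bobcat339 and 4.80 and 4.44 CPM in controls (log2 fold change −0.11), and ENSSSCG00000037864 had 0.749 and 1.02 CPM with Bobcat339 and 0.358 and 1.15 CPM in controls (log2 fold change 0.23), both with overlap. ENSSSCG00000033566 had 2.93 and 1.97 CPM with Bobcat339 and 3.296 and 3.937 CPM in controls, with both Bobcat339 libraries below and a log2 fold change of −0.56 (95% interval −1.54 to 0.43). The 10 H4 rows carry 7 distinct NCBI gene numbers, 4 rows sharing 1. Reads of such near-identical copies may have been split between rows or dropped, so the level of a single H4 row is uncertain. Whether this also affects the H2A, H2B and H3.1 rows of the clusters, HIST1H2BB among them, was not tested.

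The replication-dependent type as a class was low in these libraries, and a few of its rows stood well above the rest. How far poor capture of mRNA without a poly(A) tail lowered these levels was not tested. The highest by mean FPKM were H2A ENSSSCG00000036080 at 114, H4 ENSSSCG00000036093 at 46.6 and HIST1H2BN at 40.95. Of the 36 rows of the class, 20 were tested, with mean levels of 0.774 to 45.0 CPM and a median of 1.98 CPM. Of all 36, 11 averaged below 0.218 CPM. The 36 rows summed to 107.8 and 106.1 CPM under Bobcat339 and 108.4 and 129.9 CPM in controls. In FPKM the sums were 279 and 266 with Bobcat339 and 271 and 330 in controls. In CPM the groups did not overlap, but the first control library was within 1 CPM of the first Bobcat339 library. The log2 ratio was −0.16 (exact permutation p = 0.333). These sums hold HIST1H2BB as well, and with it taken out the groups overlapped in CPM. In FPKM the groups overlapped. The core variants summed to 2174 and 2557 CPM with Bobcat339 and 2257 and 1797 CPM in controls, mostly H3.3, with a log2 ratio of 0.22 (exact permutation p = 0.667).

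On chromosome 7, which holds 32 of the 54 rows, the rows fall into 4 stretches when a gap of more than 100 kb starts a new one. The largest, 190 kb from 20721470 to 20911559 (Sscrofa11.1), holds 18 rows of all 5 families, and its summed mean level was 231 FPKM. A stretch of 51.8 kb from 21582095 to 21633898 holds 9 rows and summed to 60.3 FPKM, while 4 rows around 21220123 to 21227153 summed to 3.51 FPKM, and HIST1H2BA stands alone. The 2 chromosome 7 histone rows with the highest FPKM, H2A ENSSSCG00000036080 and H4 ENSSSCG00000036093, lie side by side at the start of the largest stretch. HIST1H2BB lies 5.17 kb from that H2A row on the same strand and 7.77 kb from the H1.2-like row ENSSSCG00000037565. The log2 fold changes of these neighbours were −0.13 for the H2A row, −0.40 for the H1.2-like row and 0.22 for the H4 row 13.8 kb away, against −1.46 for HIST1H2BB, and none passed the test. In the largest stretch 4 tested rows had values above 0 and 8 below, where 52.9% of all tested rows were below 0.

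**Figure D4:**
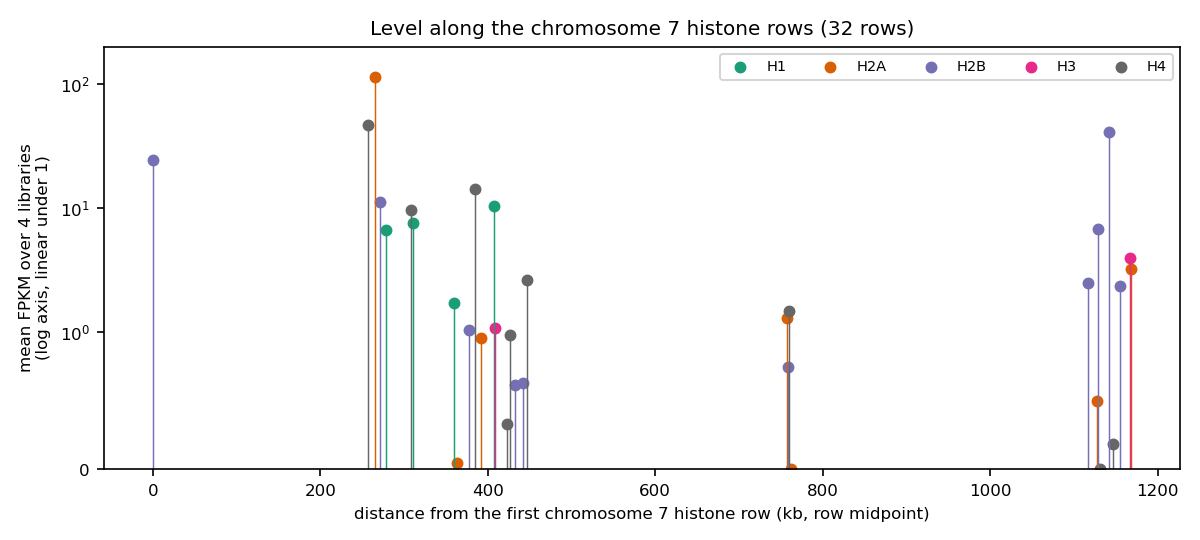
Mean FPKM over the 4 libraries (vertical axis, logarithmic above 1 and linear below) of the 32 histone rows of chromosome 7 against the distance of each row's midpoint from the first of them in kb, coloured by family. The H2A type 1 row at 114 FPKM and the H4 row at 46.6 FPKM stand next to each other, and the stretch of 4 rows between the larger groups reaches at most 1.47 FPKM.

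Genes that supply histones, that is, factors of histone gene transcription, histone mRNA 3′ end processing, and histone storage and deposition, were examined as a list of 69 genes, 67 of them tested. With Bobcat339, 0 passed an edgeR adjusted p of 0.05 and 1 had an unadjusted edgeR p below 0.05 (1.49%, against 4% of all rows); 35 had values above 0 and 31 below, YY1 was at 0.00, and the median log2 fold change was 0.00. SLBP, which binds the stem-loop of histone mRNA, had 16.4 and 22.3 CPM with Bobcat339 and 18.5 and 12.2 CPM in controls (log2 fold change 0.33, 95% interval −0.40 to 1.07). Its oocyte relative SLBP2 had 30.9 and 32.8 CPM with Bobcat339 and 23.9 and 32.2 CPM in controls (log2 fold change 0.18). Groups overlapped for both, with the second control library the lowest for SLBP and the first for SLBP2.

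The genes of the list with the highest mean CPM were RBBP4, a subunit of the replication-coupled assembly factor CAF-1, NPM1, a nucleolar histone chaperone, and PTMA, which binds H1. Their log2 fold changes were 0.07 for RBBP4, 0.15 for NPM1 and 0.24 for PTMA. The gene with the smallest p was ANP32E, a chaperone that removes H2A.Z from chromatin. It had 8.24 and 6.05 CPM with Bobcat339 and 20.99 and 11.02 CPM in controls, with no overlap, a log2 fold change of −1.16 (95% interval −1.98 to −0.34, SE 0.39), an unadjusted edgeR p of 0.00817 and an edgeR adjusted p of 0.999. Next came CLP1, a subunit of a pre-mRNA cleavage factor, with 281 and 241 CPM under Bobcat339 and 408 and 344 CPM in controls and a log2 fold change of −0.53 (95% interval −1.06 to 0.01). Which of these genes passed depended on the control library kept: without the first, CCNE1, SRRT, NAP1L1 and PTMA passed, all higher with Bobcat339, and without the second, CSTF2 and ANP32E passed, both lower. On the rows of the 4-library filter, 0 genes of the list passed without the first (0.0595% of all rows). Without the second 5 passed, namely ERI1, CSTF2, CLP1, HINFP and ANP32E, all lower (4.22% of all rows). Over all rows 2.92% passed without the first and 2.47% without the second, with the filter applied anew.

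**Figure D5:**
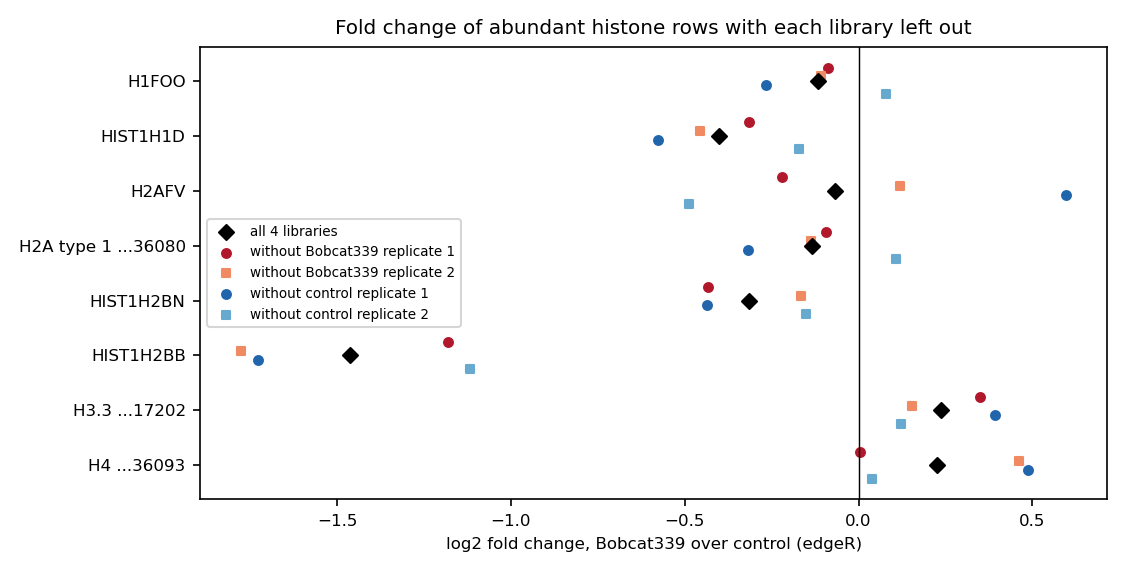
Log2 fold change of Bobcat339 over control (horizontal axis) for 8 histone rows, with all 4 libraries (black diamonds) and with each library left out in turn (coloured points). HIST1H2BB stays between −1.78 and −1.12, the H3.3 row between 0.12 and 0.39, and H2AFV ranges from −0.49 without the second control library to 0.60 without the first.

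The control libraries differed more from each other than the Bobcat339 libraries did. The chi-square per row between the replicates was 11.2 within Bobcat339 and 41.4 within control, far above counting error in both. H1FOO, HIST1H1D, HIST1H1E, the H2A type 1 row ENSSSCG00000036080 and HIST1H2BN were highest in the second control library, which was the lowest for H3.3, H2AFV, H2AFZ and H3F3A. The part of that library in these differences was not tested, since each group has 2 libraries. Whether reads were counted by strand is not given in these sources. For 25 of the 46 histone rows with counts, the span from start to end overlaps that of another row of the table. These spans take in introns and either strand, so whether reads of such rows were mixed was not tested.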

How the data were processed

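RNA sequencing was analysed in 4 libraries, 2 for each treatment, grouped by title and treatment label. Per the file headers, the table deposited by the authors holds a raw count and an FPKM value of each gene in each library, and a gene length whose source is not stated. Per the submitters' processing notes, the tools were HISAT2 2.0.5, Trimmomatic, DESeq2 1.16.1 and HTSeq, with no roles given, and the build was Sscrofa10.2. Coordinates are copied from the table and called Sscrofa11.1, because 99.9% of 14000 symbols overlap the RefSeq gene of the same symbol on Sscrofa11.1. No sequence is printed.

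Counts were tested with edgeR 4.0.16 in R 4.3.3 on the whole table: filterByExpr with a minimum count of 10 (18481 rows kept, 99.73% of the counts), TMM scaling, a quasi-likelihood fit (glmQLFit) and F test (glmQLFTest), and p-values adjusted after Benjamini and Hochberg over all rows tested at 0.05. Each standard error and 95% interval was derived from the fold change and its F statistic. The common biological coefficient of variation was 26.4%. The scripts were tested on simulated data. Sums of CPM were compared by exact permutation tests over libraries. FPKM were used as deposited, for levels only. Floors of 3 counts cover counting error only, as the reads carry no molecular identifiers.

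Named rows are the 3 with the highest mean CPM in each family, the 5 tested rows with the smallest p in each direction, and the variant and linker genes. Genes of the supply list were named as the 3 with the highest mean, the 2 with the smallest p and any called. Other named genes and rows (SLBP, SLBP2, the neighbours of HIST1H2BB, the row with the widest interval, and genes at 0 or near it) were chosen after their values were seen. The members, lists and tests were chosen with earlier results of these data known. Alternatives were DESeq2 1.42.0, DESeq2 size factors, no filter, at least 5 CPM in 2 libraries, the replicate number as a block, raw-total CPM or FPKM for the sums, and each library left out with the filter applied anew; leaving out a library on the rows of the 4-library filter was added after the data were seen.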

Additional observations from a re-analysis of the deposited data

How the results depend on the processing

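With 2 libraries in a group, rows of few counts were beyond what this depth resolves. Counts of calls moved as follows: over all rows from 0 to 5 with DESeq2, to 44 with the replicate block, and to between 0 and 780 with a library left out (586 without the first control and 494 without the second, or 11 and 780 on the rows of the 4-library filter); over histone rows to between 0 and 1; and over supply genes to between 0 and 5, with no call without either Bobcat339 library. With 1 library left in a group, it is assumed to vary as the other group does. The labels do not say that replicate numbers mark pairs, the replicate differences of the groups correlated at 0.159 across rows, and with 2 pairs the numbers are taken as names only. The replicate block called 0 histone and 0 supply rows, with HIST1H2BB at an edgeR adjusted p of 0.167 and a median of −0.09, and turned H2AFV to 0.028. The summed histone level turned to a log2 ratio of −0.044 in FPKM, and lay between −0.043 and 0.102 with a library left out. HIST1H2BA was at 0.003 with DESeq2 and 0.004 with no filter. The histone median lay between −0.19 and −0.08 with a library left out. Of 285 values of 23 named rows under alternatives, 1 passed the threshold and 37 had the other sign, 34 of them from leaving out a library. With a library left out, 19 of the 30 tested rows changed sign, 12 of them named by rule, with log2 fold changes between −0.27 and 0.08 (H1FOO), −0.26 and 0.64 (H1FX), −0.49 and 0.60 (H2AFV), −0.32 and 0.11 (H2A ENSSSCG00000036080), −0.39 and 0.29 (H2A ENSSSCG00000034598), −1.30 and 0.32 (H2AFJ), −0.16 and 0.15 (HIST1H2BA), −1.01 and 1.94 (H2B ENSSSCG00000033736), −0.32 and 0.82 (H3.1 ENSSSCG00000038945), −0.42 and 1.28 (H3.1 ENSSSCG00000035644), −0.71 and 0.37 (H4 ENSSSCG00000032640), and −0.37 and 1.31 (H4 ENSSSCG00000037864). Among the 7 others were the H1.2-like row ENSSSCG00000037565 (−1.02 to 0.09) and H2B ENSSSCG00000035955 (−1.72 to 1.18). HIST1H2BB lay between −1.78 and −1.12. The cause of these shifts was not tested.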

Other observations

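The deposited length of the H3.3 row, 6740 bases, exceeds the 4109 bases it spans in the table, and its FPKM values correspond to a length of 3989 bases. It is the only histone row whose deposited length exceeds its span, against 1214 rows of the whole table. Of the 107472 FPKM values above 0, 63953 lie within 0.1% of the value given by the count, the deposited length and the raw library total. Of the 49 histone rows whose NCBI gene number is in the Sscrofa11.1 RefSeq table, 44 overlap that gene. Of the 8 histone rows at 0 in all 4 libraries, 3 have a span that overlaps that of another row of the table.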
